A study of Mus musculus with 2 samples.

Results

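Genes for fatty acid uptake and binding were compared between 3T3-L1 cells that received a Pink1 siRNA and 3T3-L1 cells that received a control siRNA. The 10 genes were taken by symbol from the 2 deposited count tables, out of 23238 distinct symbols. They encode an extracellular lipase with its partners (Lpl, Lmf1, Gpihbp1, Angptl4), membrane transporters (Cd36, Slc27a1, Slc27a4) and intracellular carriers (Fabp4, Fabp5, Dbi). All 10 symbols were found in both tables, and 9 had a summed count of at least 40, the minimum for a gene to be called measured.

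Fat cells obtain much of their fatty acid from triglyceride carried in blood. Lipoprotein lipase (LPL) is made by the fat cell, matures in the endoplasmic reticulum and is moved to the capillary wall, where it releases fatty acids from lipoproteins. The fatty acids enter through CD36 and the fatty acid transport proteins, are bound in the cytosol by fatty acid-binding proteins, and are activated to acyl-CoA, which the DBI protein carries. Several of these genes, Fabp4, Cd36, Lpl and Angptl4 among them, are textbook targets of the adipogenic nuclear receptor PPARγ.

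3T3-L1 is a line of mouse preadipocytes that fills with lipid when differentiation is induced, and the labels give the cells of both groups as murine adipocytes. The Pink1 siRNA group and the control siRNA group had 1 library each, made from total RNA with a QuantSeq kit, which reads tags from the 3′ ends of transcripts. Pink1 encodes a mitochondrial kinase, and the series title sets the study in age-related bone loss. The siRNA sequences, the time after transfection, the days of differentiation and the number of cultures behind each library are not given in the sources used here. With 1 library per group no difference has a replicate check and none carries a p-value.

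The Pink1 siRNA library held 14214768 counts and the control siRNA library 13803174 counts. Levels are given as CPM, the count per 1000000 of an effective library size,, and ratios are Pink1 siRNA over control siRNA. Pink1 had 25.1 CPM in the Pink1 siRNA library, against 36.5 CPM in the control siRNA library, the direction the labels give. Its ratio of 0.687 was short of a 2-fold difference and had a counting interval from 0.598 to 0.788, but with the wider interval introduced further on it ran from 0.445 to 1.05 and included 1. Of 8 mature adipocyte markers that are not members, 6 were measured, with 9629 counts summed over the list in the Pink1 siRNA library and 8867 in the control siRNA library. Adipoq, the hormone adiponectin, had 4309 and 4337 of these counts, while the leptin gene Lep had 0 counts in both libraries. The other markers went both ways, with Retn at 562 and 376 counts and Cidec at 2586 and 2072 in the Pink1 siRNA and control siRNA libraries, but Plin1 at 167 and 275 and Slc2a4 at 25 and 49. The widened interval of the ratio included 1 for each of these 4. Preadipocyte and fibroblast markers summed to 292507 counts in the Pink1 siRNA library and 261553 in the control siRNA library, so both libraries held transcripts from both marker lists. Whether the same cells made both cannot be told from these libraries. In bulk RNA, fewer cells of a type and less RNA per cell cannot be told apart.

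The genes as a group took a near-equal part of both libraries. They held 42325 counts in the Pink1 siRNA library, or 0.298% of it, against 40870 counts in the control siRNA library, or 0.296%. Fabp4, Lpl and Dbi supplied 89.4% of these counts in the Pink1 siRNA library and 88.7% in the control siRNA library. Divided by the length of the longest coding transcript, the carriers Fabp4 and Dbi stood highest in both libraries, with Fabp4 at 1335 and 1169 CPM per kilobase in the Pink1 siRNA and control siRNA libraries and Dbi at 1217 and 1271. Lpl and Fabp5 followed, at 198 and 191 CPM per kilobase in the Pink1 siRNA library, against 198 and 226 in the control siRNA library. Dbi and Fabp4, and likewise Lpl and Fabp5, therefore traded places between the libraries, and with 1 library per group the spread behind such neighbouring levels is unknown. Angptl4, Cd36, Lmf1, Slc27a4 and Slc27a1 came next in that order in both libraries, between 15.7 and 1.61 CPM per kilobase in the Pink1 siRNA library and between 13.7 and 1.69 in the control siRNA library, with Gpihbp1 last. A 3′ tag count need not grow with transcript length, so this order depends on the division. In CPM without it, the order was Fabp4, Lpl, Dbi and Fabp5 in both libraries, and none traded places.

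**Figure D1:**
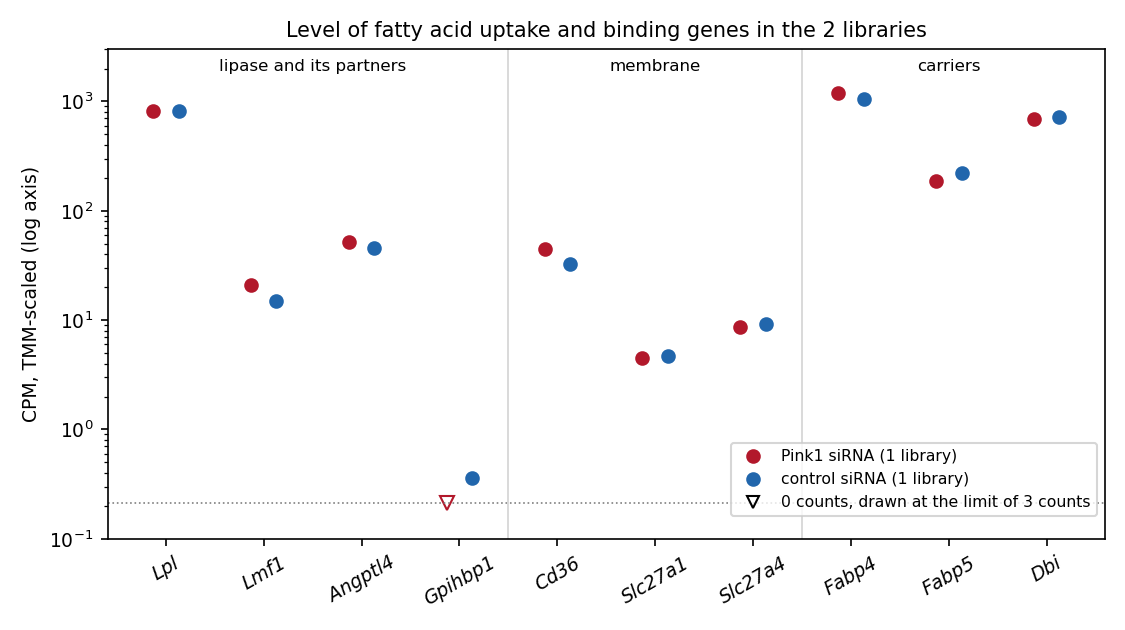
Level of each of the 10 genes in CPM (log axis) in the Pink1 siRNA library (red) and the control siRNA library (blue), 1 point per library, with a 0 count drawn as an open triangle at the limit that 3 counts set. The paired points lie close together for every gene but Gpihbp1, which had 0 counts in the Pink1 siRNA library and 5 in the control siRNA library.

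No measured gene of the group was past the rule of size. That rule calls a gene higher or lower when its ratio is at least 2 either way and the 95% counting interval of the ratio, an exact conditional binomial interval of the 2 counts, leaves out 1. It called 0 of the 9, against 4.02% of the 11660 genes measured in all (1.63% higher and 2.39% lower). With a ratio of 1.5 in place of 2 it again called 0 of the 9, against 12.1% of all measured genes. The ratios were above 1 for 4 genes and below 1 for 5, with a median log2 ratio of 0.00 (Lpl), the same to 2 decimals as the median of all measured genes. They ran from a log2 ratio of -0.24 for Fabp5 to 0.50 for Lmf1.

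Counting error alone was exceeded by 6 of the 9, but this is near the background. Counting intervals lay above 1 for 4 genes (Lmf1, Cd36, Angptl4 and Fabp4) and below 1 for 2 (Fabp5 and Dbi). Of all measured genes 51.2% had an interval that left out 1, above it for 26.2% and below it for 24.9%. A second interval was widened by the excess spread seen between the libraries among genes of the same twentieth of mean level. This widened interval included 1 for all 9 genes, against 4.1% of measured genes for which it left out 1. The differences of these 9 genes described below are single measurements, and none went beyond the spread of genes at its level by this interval.

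**Figure D2:**
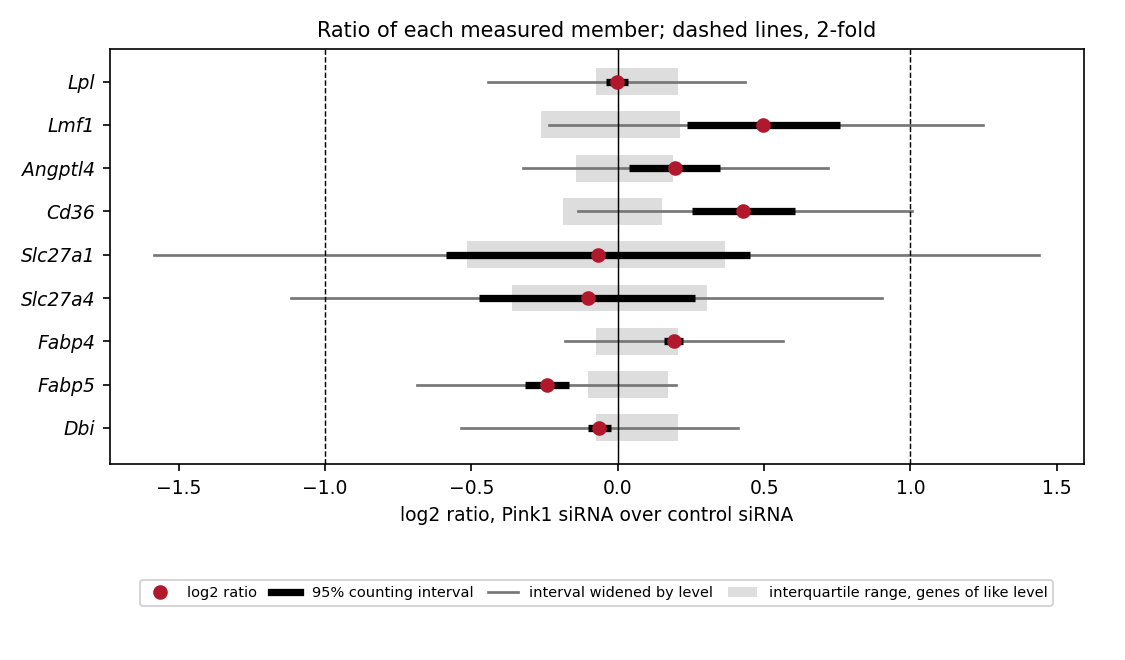
Log2 ratio (horizontal axis) of the 9 measured genes, Pink1 siRNA over control siRNA, with the 95% counting interval (thick), the widened interval (thin) and the interquartile range of the 583 genes of the same twentieth of level (grey). Every thin line crosses 0, and the points of Lmf1, Cd36 and Angptl4 lie to the right of their grey bars while that of Fabp5 lies to the left.

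Lpl, which encodes lipoprotein lipase, had nearly the same level in both libraries. It had 11411 counts, 815 CPM, in the Pink1 siRNA library and 11440 counts, 817 CPM, in the control siRNA library. Their ratio was 0.998 (counting interval 0.972 to 1.02), so counting error alone covers the difference. The gene lies on chromosome 8 from 68880491 to 68907448 on the plus strand (mm10). With the factor of 128 that the most abundant twentieth of genes carries, the interval widened to 0.735 to 1.35, which is far wider than counting error alone.

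Lmf1, which encodes an endoplasmic reticulum protein that LPL needs to fold into its active form, had the ratio furthest from 1 among the measured genes. There were 295 counts, 21.1 CPM, in the Pink1 siRNA library and 209 counts, 14.9 CPM, in the control siRNA library. Its ratio was 1.41 (counting interval 1.18 to 1.69, widened 0.849 to 2.38). Among the 583 genes of its twentieth of level, 43 had a log2 ratio as high or higher, Lmf1 included. Lmf2, its paralog, had 457 counts in the Pink1 siRNA library and 418 in the control siRNA library.

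Angptl4 encodes a secreted protein that inhibits LPL. It had 728 counts, 52.0 CPM, in the Pink1 siRNA library and 636 counts, 45.4 CPM, in the control siRNA library. The ratio of 1.14 had a counting interval of 1.03 to 1.28 and a widened interval of 0.799 to 1.64. Its log2 ratio of 0.19 lay just above the interquartile range of its level (-0.14 to 0.19), and 144 of 583 genes were as high or higher. Angptl4 and Lmf1 both lie on chromosome 17, from 33773750 to 33781830 and from 25579085 to 25662826.

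Gpihbp1 encodes the endothelial protein that carries LPL across the capillary wall, and it was barely detected. The Pink1 siRNA library had 0 counts, which allows up to 0.214 CPM, and the control siRNA library had 5 counts, 0.357 CPM. Against the limit of 3 counts per library this is 1.67-fold lower, but the counting interval of the ratio reached up to 1.09 and so included 1. Of 10 endothelial markers 7 had 0 counts in both libraries, among them Cdh5, Tie1, Tek, Kdr and Vwf. Summed over the list, endothelial markers had 49 counts in the Pink1 siRNA library and 93 in the control siRNA library. Of these the receptor gene Flt1 gave 42 and 80, Pecam1 7 and 8, and Emcn 0 and 5. Only Flt1 was measured, with a counting interval of 0.353 to 0.772 and a widened interval of 0.157 to 1.56, which included 1. Gpihbp1 was not measured by the minimum count and enters no count of called genes.

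Relative to Lpl in the same library, which needs no scaling between libraries, Lmf1 and Angptl4 gave values close to their own ratios. As the ratio of Lpl was itself 0.998, this closeness follows from the division and is no separate check. The Pink1 siRNA library had 0.0259 Lmf1 counts per Lpl count, against 0.0183 in the control siRNA library, a ratio of 1.42 (95% counting interval 1.18 to 1.69 by the normal approximation on the log scale, widened 0.804 to 2.49). For Angptl4 per Lpl the values were 0.0638 in the Pink1 siRNA library and 0.0556 in the control siRNA library, a ratio of 1.15 (1.03 to 1.28, widened 0.730 to 1.80). Both widened intervals included 1. The pairs of genes set against each other here and below were chosen after their values were seen.

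Among membrane transporters, Cd36 had more counts in the Pink1 siRNA library and both fatty acid transport protein genes had nearly equal counts. Cd36 encodes the scavenger receptor that binds long-chain fatty acids at the surface of fat and muscle cells and macrophages. It had 621 counts, 44.3 CPM, in the Pink1 siRNA library and 461 counts, 32.9 CPM, in the control siRNA library. Its ratio was 1.35 (counting interval 1.19 to 1.52, widened 0.911 to 2.01). Of the 583 genes of its level 22 had a log2 ratio as high or higher, Cd36 included, the smallest such number among the 9 genes. As Cd36 is also a macrophage gene, macrophage markers were examined beside it. Of the 10 listed, 4 had 0 counts in both libraries, Adgre1, Itgam, C1qa and C1qb. The list summed to 237 counts in the Pink1 siRNA library and 300 in the control siRNA library, of which Cd14 gave 179 and 223. The others were detected at low counts in the same order, Cd68 at 23 and 20, Csf1r at 11 and 25 and Lyz2 at 12 and 12. Mrc1 had 12 and 15 counts and Ptprc 0 and 5. The part of macrophage transcripts in the Cd36 counts was not tested.

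Slc27a1 encodes FATP1, the transport protein of fat and muscle that moves to the surface on insulin, and Slc27a4 encodes FATP4, a more widely made relative. Slc27a1 had 63 counts, 4.50 CPM, in the Pink1 siRNA library and 66 counts, 4.71 CPM, in the control siRNA library. For Slc27a4 there were 121 counts, 8.64 CPM, in the Pink1 siRNA library and 130 counts, 9.28 CPM, in the control siRNA library. Both lay below 1 by less than counting error, with a ratio of 0.955 (counting interval 0.665 to 1.37) for Slc27a1 and 0.931 (0.721 to 1.20) for Slc27a4. The depth is too low to separate a difference of that size from counting error. The 3′ end of Slc27a1 also shares stretches of at least 100 bases, at 95% identity or more, with transcripts of 7 other genes, 4 of them in the tables, and how multiply mapped reads were placed is not given, so its counts are uncertain. No such match was found for the other 9 genes, and none of the 10 is overlapped by another gene in the annotation.

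The RefSeq promoter table (GRCm38.p6) held entries for 5 of the 10 genes, Cd36, Lmf1, Dbi, Slc27a1 and Slc27a4. It gave none for Lpl, Fabp4, Fabp5, Gpihbp1 and Angptl4. Of the 250 bases before the listed start, all are shown for Cd36 (chr5:17835897-17836146, minus strand) and the first 161 for Lmf1 (chr17:25578924-25579084, plus strand), because these had the ratios furthest from 1 among the measured genes. The last 89 bases of the Lmf1 window lie inside the gene as GENCODE annotates it, from 25579085, and are left out. The whole Cd36 window also lies inside its gene as GENCODE annotates it, from 17781690 to 17888801. It was not trimmed, so it lies before the listed start and not before the outer end of the gene. Capitals mark matches on either strand to the nuclear receptor half-site (letters AGGTCA), the GC box (letters GGGCGG), the CCAAT box (letters as named) and the TATA box (letters TATAAA), none of which overlap here.
Cd36: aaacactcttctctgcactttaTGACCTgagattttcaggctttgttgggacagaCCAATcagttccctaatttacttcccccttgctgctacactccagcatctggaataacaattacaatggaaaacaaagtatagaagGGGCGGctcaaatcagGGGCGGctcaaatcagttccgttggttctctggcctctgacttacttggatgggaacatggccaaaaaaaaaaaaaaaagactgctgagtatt
Lmf1: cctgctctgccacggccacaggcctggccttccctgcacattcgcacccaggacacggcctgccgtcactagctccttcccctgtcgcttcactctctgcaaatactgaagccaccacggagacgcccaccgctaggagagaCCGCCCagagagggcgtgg
These are reference letters of the C57BL/6J genome and were not read from the 3T3-L1 libraries.

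The Cd36 window held a half-site on the opposite strand, 228 to 223 bases before the listed start. It also held a CCAAT box at 195 to 191 bases and GC boxes at 109 to 104 and 93 to 88 bases. In the Lmf1 window the only match was a GC box on the opposite strand, 108 to 103 bases before the listed start, in the part shown. Among all 32851 promoter entries, the half-site was in 14.0% of windows of this length, the GC box in 32.7%, the CCAAT box in 33.9% and the TATA box in 12.4%. Both genes have more than 1 annotated start, and matches were sought only before the start that the promoter table lists. The 2 genes thus share a GC box, a common motif, and the half-site was seen in the Cd36 window and not in the Lmf1 window.

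The intracellular carriers had ratios on both sides of 1. Fabp4 encodes the adipocyte fatty acid-binding protein, also called aP2. It had 16749 counts, 1196 CPM, in the Pink1 siRNA library and 14673 counts, 1047 CPM, in the control siRNA library, a ratio of 1.14 (counting interval 1.12 to 1.17, widened 0.882 to 1.48). On the log2 scale this is 0.19, inside the interquartile range of the 583 most abundant genes (-0.08 to 0.21). Preadipocyte and fibroblast markers had ratios above 1 in all 7 that were measured, with a median log2 ratio of 0.13. The widened interval lay above 1 for 3 of the 7, Dlk1 (1.02 to 1.23), Thy1 (1.05 to 2.06) and Col1a1 (1.01 to 1.31), against 4.1% of all measured genes in either direction. Dlk1 and Col1a1 are among the 583 most abundant genes, and their log2 ratios of 0.16 and 0.20 lay inside the interquartile range just given. With 1 factor for the whole twentieth, the widened interval is narrowest for the genes with the most counts. Of the mature adipocyte markers 3 of 6 had ratios above 1, with a median of 0.08 and no widened interval that left out 1. The part of these markers in the Fabp4 value was not tested.

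Fabp5, which encodes the epidermal-type fatty acid-binding protein also made by fat cells and macrophages, had the lowest ratio of the measured genes. There were 2641 counts, 189 CPM, in the Pink1 siRNA library and 3121 counts, 223 CPM, in the control siRNA library. The ratio was 0.846 (1.18-fold lower), and its counting interval was 0.803 to 0.892 and its widened interval 0.622 to 1.15. Of the 583 genes of its level 43 had a log2 ratio as low or lower, Fabp5 included.

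Fabp4 and Fabp5 lie in a cluster of related genes on chromosome 3, on opposite strands and 187.5 kilobases apart. Between the ends of Fabp5 (10012548 to 10016607) and Fabp4 (10204088 to 10208576) lie Pmp2, the myelin member of the family, and Fabp9, the testis member. Fabp9 had 0 counts in both libraries. Pmp2 had 0 counts in the Pink1 siRNA library and 13 in the control siRNA library, and Fabp12, on the far side of Fabp4, had 1 count in the Pink1 siRNA library and 0 in the control siRNA library. Nearly all reads of the cluster thus came from its adipocyte and epidermal members.

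Within this pair the balance leaned further towards Fabp4 in the Pink1 siRNA library. Fabp4 took 86.4% of the 19390 counts of the pair there (exact binomial 95% interval 85.9% to 86.9%), against 82.5% of 17794 counts in the control siRNA library (81.9% to 83.0%). That is 6.34 Fabp4 counts per Fabp5 count in the Pink1 siRNA library and 4.70 in the control siRNA library, a ratio of 1.35 that no choice of scaling alters. Its counting interval was 1.28 to 1.43. Widened by the excess spread at both levels it was 0.916 to 1.99, which included 1.

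Dbi encodes acyl-CoA-binding protein, which holds activated fatty acids in the cytosol and is secreted by some cells as a signalling peptide. It had 9696 counts, 692 CPM, in the Pink1 siRNA library and 10129 counts, 723 CPM, in the control siRNA library. The ratio of 0.957 had a counting interval of 0.931 to 0.984, just below 1, and a widened interval of 0.689 to 1.33. On the log2 scale this is -0.06, inside the same interquartile range. Among the acyl-CoA-binding domain genes Acbd3, Acbd4, Acbd5 and Acbd6, also measured, the log2 ratios were -0.14, 0.25, 0.11 and 0.02, none past the rule.

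**Figure D3:**
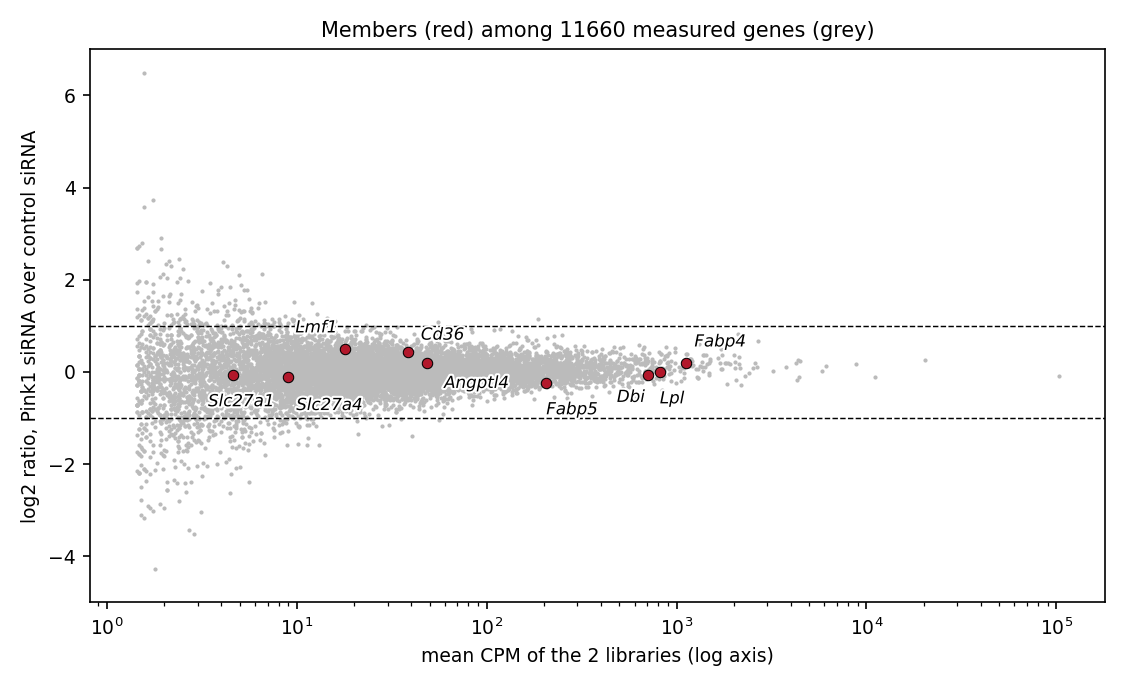
Log2 ratio of Pink1 siRNA over control siRNA (vertical axis) against the mean CPM of the libraries (log axis) for all 11660 measured genes (grey), with the 9 measured members in red and dashed lines at 2-fold. All 9 members lie inside the dashed lines, Lmf1 at 0.50 and Cd36 at 0.43 being the uppermost.

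Genes that act beside the group were examined in 5 related lists with 50 measured genes. The rule of size called 2 of the 50, or 4%, both higher, close to the 4.02% of all measured genes. In the list of lipase handling and lipoprotein receptors, 12 of 22 genes were measured, 1 was called higher and 0 lower, and the median log2 ratio was 0.00. The gene called was Lsr, a receptor for triglyceride-rich lipoproteins, with 99 counts in the Pink1 siRNA library and 39 in the control siRNA library. Its ratio was 2.52 (counting interval 1.74 to 3.78, widened 0.883 to 8.58, which included 1). Furin, the protease gene whose product cuts LPL into an inactive form and also cuts ANGPTL4, had 1325 counts in the Pink1 siRNA library and 876 in the control siRNA library. Its ratio of 1.51 was short of the rule, while its widened interval of 1.10 to 2.10 left out 1. Hspg2, which encodes the basement membrane proteoglycan perlecan, had a log2 ratio of -0.36, and the apolipoprotein gene Apoc1 had -0.34. Vldlr, the VLDL receptor gene of fat and muscle, and Lrp1, a large endocytic receptor gene, had 0.966 and 1.01 as ratios.

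Other transporters and surface partners held no called gene among 10 measured of 15, and their median log2 ratio was 0.10. Slc27a3, which encodes the transport protein relative FATP3, had 87 counts in the Pink1 siRNA library and 47 in the control siRNA library, a ratio of 1.84 with a counting interval of 1.28 to 2.70 and a widened interval of 0.660 to 5.74. Cav2, the gene for a caveolin of the surface invaginations that fat cells carry in large number, had 1388 counts in the Pink1 siRNA library and 955 in the control siRNA library. Its ratio of 1.45 had a widened interval of 1.07 to 1.99, which left out 1. Cav1 had a log2 ratio of 0.19 and the HDL receptor gene Scarb1, a relative of Cd36, had -0.26. The liver transport protein genes Slc27a2 and Slc27a5 had 0 counts in both libraries.

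Other lipid-binding genes were close to 1, and acyl-CoA synthetases were mostly below it. Of 20 other lipid-binding and acyl-CoA-binding genes 6 were measured, 0 were called, and the median log2 ratio was 0.06. Of 14 acyl-CoA synthetases 8 were measured, with a median of -0.22 and 6 ratios below 1. The lower quartile of all measured genes was -0.21. Acsl1, the main long-chain synthetase of fat cells, had 1965 counts in the Pink1 siRNA library and 2571 in the control siRNA library. Its ratio of 0.764 (log2 ratio -0.39) had a counting interval of 0.720 to 0.811 and a widened interval of 0.538 to 1.08. The acetyl-CoA synthetase gene Acss2 had a log2 ratio of -0.39 as well (widened interval of the ratio 0.348 to 1.63). The 1 gene called was Acsf2, a mitochondrial synthetase, higher with 100 counts in the Pink1 siRNA library and 20 in the control siRNA library (widened interval of the ratio 1.35 to 29.5), and Acsf3 had 0.68.

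PPAR and RXR regulators, which govern transcription of several members, held no called gene among 14 measured of 15. Their median log2 ratio was -0.10. Pparg had 787 counts in the Pink1 siRNA library and 759 in the control siRNA library, a ratio of 1.04 with a counting interval of 0.937 to 1.15. The genes furthest from 1 were the coactivators Ppargc1b (-0.61), Ppargc1a (-0.53) and Ncoa2 (0.57) and the receptor Ppara (0.58), and the widened interval included 1 for each.

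**Figure D4:**
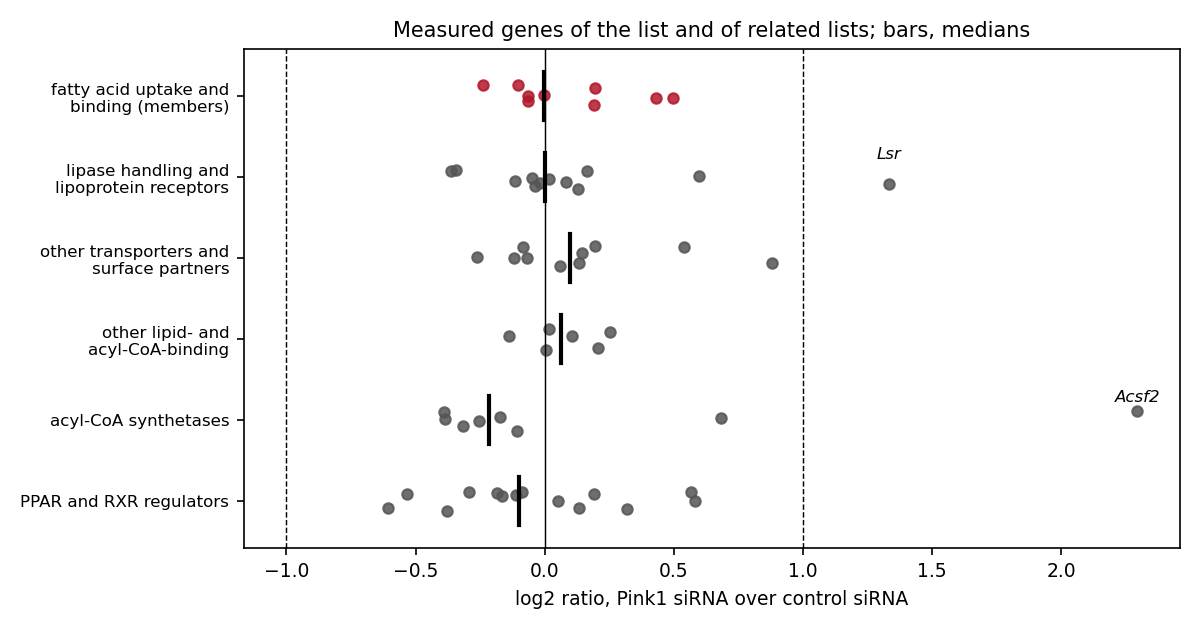
Log2 ratio of Pink1 siRNA over control siRNA (horizontal axis) for each measured gene of the group (red) and of the 5 related lists (grey), with vertical spread added to separate points, a bar at each median and dashed lines at 2-fold. Lsr at 1.33 and Acsf2 at 2.29 are the 2 genes past 2-fold, and the medians run from -0.22 to 0.10.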

How the data were processed

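The submitters' processing notes name the mm10 build and the tools bcl2fastq (2.20.0.422), Bowtie2 and bedtools. The annotation, the use of strand, the placing of multiply mapped reads and any molecular identifiers are not given in the sources used here. Each deposited table holds raw whole-number counts of reads by gene symbol for 1 library; this unit was read from the values. Both tables held 23282 rows in the same order; no member symbol was repeated.

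Counts were scaled by TMM effective library sizes (edgeR 4.0.16, R 4.3.3), and log2 ratios were taken with 0.5 added. Intervals were exact conditional binomial (Clopper-Pearson, SciPy 1.17.1). The counting intervals and the limits cover only the counting error of reads, and reads of 1 molecule may be counted more than once. The widened interval divides both counts by the mean squared deviation over binomial variance in the gene's twentieth of mean level, in which technical spread and differences between cultures are mixed. Positions are from GENCODE M21 (GRCm38, the assembly of mm10, 1-based). The last 300 bases of each longest coding transcript were compared with all transcripts by BLAST 2.17.0. The counting interval and the rule were tested on simulated data that held counting error alone, which cannot test the widened interval. Symbols absent from the tables, Angptl8 and Cavin1, were found under RefSeq synonyms.

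All 10 members were named, with Pink1, and in each related list the called genes and the 4 measured genes with the largest log2 ratio in size; a few others are named for their role, after their values were seen. A gene that this rule takes is not reported here. The members and lists were chosen with earlier results of these data known. Alternatives were other scalings, including DESeq2 1.42.0 size factors, another added value, other minimum counts, other ratios and other intervals.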

Additional observations from a re-analysis of the deposited data

How the results depend on the processing

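Under 4 other scalings (total counts, DESeq2 size factors, upper quartile, and Rn45s left out) and with 5 added before the log, the 9 members' log2 ratios shifted by between -0.04 and 0.00, and none changed sign. Of the 45 values, 3 lay outside their counting interval, all with total counts (Lpl, Fabp4 and Dbi). The members' median log2 ratio was -0.046 with total counts and 0.094 with a minimum summed count of 200, which leaves out Slc27a1, so its sign depends on these choices. The count of called members was 0 under every alternative run. Under each of the 4 scalings 4 ratios lay above 1, 6 counting intervals left out 1 and 0 widened intervals did.

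The background depended on the rule. Genes called higher, 190, and lower, 279, became 597 and 853 with no minimum count, 26 and 40 with a minimum of 200, 633 and 774 at a ratio of 1.5, 23 and 44 at a ratio of 4, 48 and 81 with the interval widened by level, and 47 and 80 with a common factor, an alternative chosen after seeing the data. In the related lists, lipase handling held 2 called genes at a ratio of 1.5 and 0 at a ratio of 4, with a minimum of 200 or with either widened interval. Acyl-CoA synthetases held 2 at 1.5 and 0 with a minimum of 200. Other transporters and PPAR regulators held 1 each at 1.5, and lipid-binding genes held 5 of 14 with a count when there was no minimum, where 9.36% of all 15489 rows with a count were called.

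No paired analysis was possible because each group had 1 library, and likewise no library was left out. Depth limits Gpihbp1, Slc27a1 and Slc27a4 most. How far any ratio goes beyond the difference between cultures of 1 group was not measured.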

Other observations

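Outside the measured genes, 5 lipid-binding relatives had counting intervals that left out 1 and ratios past 2-fold from few reads, and they were picked after their values were seen. They are 5 of the 8 genes of their list that had a count but missed the minimum, and among all 3829 such rows the same rule called 981, or 25.6%. Fabp1, the liver fatty acid-binding protein gene, had 8 counts in the Pink1 siRNA library and 0 in the control siRNA library. Against the limit of 3 counts per library this is 2.67-fold higher, and the lower end of its counting interval was 1.71. Fabp3, the heart member, had 7 and 0 counts, 2.33-fold higher against that limit, with a counting interval from 1.44 upwards. Pmp2, the myelin member, had 0 counts in the Pink1 siRNA library and 13 in the control siRNA library. Against that limit Pmp2 was 4.33-fold lower, and the counting interval of its ratio reached up to 0.328. Rbp2, an intestinal retinol-binding protein gene, had 8 counts in the Pink1 siRNA library and 1 in the control siRNA library, a ratio of 5.67 (counting interval 1.07 to 355). Dbil5, a relative of Dbi, had 9 and 21 counts, a ratio of 0.442 (0.173 to 0.976). With no molecular identifiers mentioned in the labels, how many RNA molecules lie behind these reads is unknown.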
